A study of Mus musculus with 42 samples.

Results

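Cholesterol enters a mouse cell in lipoproteins, is made there from acetyl-CoA, is stored as ester and leaves through membrane transporters, and 32 genes of these routes are described here across 42 libraries of a study of visceral adipose tissue (VAT). They were found by name, as the rows of the gene count table whose symbol is 1 of a list of 32 members, and all 32 were among its 55011 genes. By role they are 18 synthesis enzymes, 4 regulators (Srebf2, Scap, Insig1 and Insig2), 6 efflux genes (Nr1h3, Nr1h2, Abca1, Abcg1, Mylip and Apoe) and 4 genes of uptake, traffic and storage (Scarb1, Npc1, Stard4 and Soat1). The enzymes, in the order of the pathway, are Acat2, Hmgcs1, Mvk, Pmvk, Mvd, Idi1, Fdps, Fdft1, Sqle, Lss, Cyp51, Tm7sf2, Msmo1, Nsdhl, Hsd17b7, Ebp, Sc5d and Dhcr7. On GRCm38 (GENCODE M21) the members described most often lie at chr15:82147181-82205379 (Srebf2), chr5:28071363-28078662 (Insig1), chr4:53030787-53159895 (Abca1), chr17:31057675-31117988 (Abcg1), chr7:19696109-19699188 (Apoe) and chr10:76531588-76557138 (Lss), and every value is a count over the exons of a gene.

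The libraries form 15 groups, and all stromal and floating cells came from mice labelled Pparg-Tdt. VmSC5 and VmSC4 are 2 sorted stromal populations, sequenced after 8 days of adipogenic culture (n = 3 each), after adoptive transfer and as fresh cells (n = 3 each). The transferred cells were sorted again from recipients that the series text calls Kaeda, as VmSC5-derived VmSC5 (VmSC5-5, n = 2), VmSC4-derived VmSC5 (VmSC4-5, n = 3) and VmSC4-derived VmSC4 (VmSC4-4, n = 3). Floating cells labelled adipocyte came from Pparg-Tdt:Foxp3-DTR+ mice (n = 2) and Pparg-Tdt:Foxp3-DTR- mice (n = 2), all given diphtheria toxin, which kills the Foxp3-expressing regulatory T (Treg) cells of DTR+ mice. Adipogenic VmSC5 cultures were also grown with Treg (n = 3) or without Treg (n = 3). A further pair of culture groups received the cytokine oncostatin M (OSM, 10 ng/mL, n = 3) or PBS (n = 3). The titles name Treg in these wells, while the series text speaks of medium conditioned by VAT Treg cells. Treg cells of eVAT came from mice of genotype OSMf/f, titled KO (n = 3), and OSM+/+, titled WT (n = 3). The sorting gates, any Cre line, the ages and whether replicates are separate animals are not given in the sources used here. The p-values therefore measure the spread among libraries, part of which may be technical.

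The synthesis pathway joins acetyl units into mevalonate and squalene, closes squalene to lanosterol (Sqle, Lss) and trims lanosterol to cholesterol (Cyp51 to Dhcr7). Its genes are switched on by SREBP-2, the product of Srebf2, which Scap escorts out of the endoplasmic reticulum when sterols are scarce and which Insig1 and Insig2 hold back when sterols are plentiful. In the other direction the oxysterol receptors LXR-alpha (Nr1h3) and LXR-beta (Nr1h2) switch on the transporters Abca1 and Abcg1, the ubiquitin ligase Mylip, which removes lipoprotein receptors, and the carrier protein Apoe. Scarb1 takes up cholesterol from HDL, Npc1 moves it out of lysosomes, Stard4 carries it between membranes and Soat1 esterifies it for storage. Fat cells keep a large pool of free cholesterol on their lipid droplets.

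Total counts per library ran from 1072147 to 12514783. Fresh cells were sequenced deepest (8527769 to 12514783), ahead of floating cells (5932453 to 7490677), VmSC5 grown with or without Treg (4648878 to 7933682), transferred cells (1967123 to 5044946) and Treg cells (1507163 to 4438234). The 8-day adipogenic cultures had 1841664 to 2606360 and the wells of the OSM experiment 1072147 to 2078534. The labelled cell types carried their defining transcripts. The summed level of 8 adipocyte markers was 41920 to 46820 counts per 1000000 counts of the library (CPM) in the 8-day adipogenic cultures and floating cells and 1449 to 2097 CPM in fresh stromal cells, while 6 Treg markers summed to 3271 to 4230 CPM in Treg cells and to at most 16.5 CPM elsewhere. DTR+ replicate 3 stood apart: 15.4% of its counts lay in genes with more than 5000 exonic bases, against 28.3% in DTR+ replicate 2 and 28.1% to 35.5% in the DTR- libraries. Exons of 10 members overlap those of another gene in GENCODE M21 (Hmgcs1, Idi1, Fdps, Fdft1, Lss, Cyp51, Tm7sf2, Scap, Nr1h3 and Npc1), and the strand setting of the counting is not given, so their values may hold reads of the other gene. These are bulk libraries, in which fewer cells of a type and less RNA per cell cannot be told apart.

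Upstream sequences of the members are given as a description, and what part they have in the members' changes was not tested. Promoters of 25 of the 32 members were found in RefSeq on GRCm38.p6 (15 of 18 enzymes, 4 of 4 regulators, 5 of 6 efflux genes and Soat1), and the 250 bases before the start were searched on both strands. The sequence CCAAT, the binding core of NF-Y, a known partner of SREBP, was present in 14 of 15 enzymes, 3 of 4 regulators, 1 of 5 efflux genes (Mylip) and Soat1, against 37.5% of all 27025 genes with a promoter. The sterol element TCACNCCAC, as found in known SREBP targets, was present in Hmgcs1 alone, against 1.22% of genes. The E-box CACGTG stood in 3 of 15 enzymes (Hsd17b7, Sc5d and Dhcr7), 2 of 4 regulators (Scap and Insig1) and 1 of 5 efflux genes (Abca1), against 6.86% of genes. An exact repeat of AGGTCA with 4 bases between, the perfect form of the LXR element DR4, was in none of the 25 and in 0.0148% of genes. No other form was searched, so a DR4 with changed letters, in Abca1 or elsewhere, would be missed. A match shows the letters only, and a missing match says nothing of a factor's binding. Below are 250 bases up to the RefSeq start, on the strand of the gene, for 3 enzymes, 2 regulators and 1 transporter. For Srebf2, Insig1 and Lss that start lies past the GENCODE M21 start given above, so their last bases fall inside the GENCODE gene. CCAAT or its reverse ATTGG and the sterol element are in capitals.
Hmgcs1 (chr13:119690101-119690350, plus strand): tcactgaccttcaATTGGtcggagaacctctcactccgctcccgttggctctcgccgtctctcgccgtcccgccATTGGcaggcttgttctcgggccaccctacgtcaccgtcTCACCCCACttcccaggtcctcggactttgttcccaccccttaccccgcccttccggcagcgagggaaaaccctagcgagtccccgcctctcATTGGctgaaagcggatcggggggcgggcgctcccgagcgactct
Lss (chr10:76531355-76531604, plus strand): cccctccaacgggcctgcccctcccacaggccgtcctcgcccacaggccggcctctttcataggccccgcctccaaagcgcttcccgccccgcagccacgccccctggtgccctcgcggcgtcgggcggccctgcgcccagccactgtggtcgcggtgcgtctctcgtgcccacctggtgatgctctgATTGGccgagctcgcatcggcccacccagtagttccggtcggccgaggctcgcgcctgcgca
Sc5d (chr9:42264301-42264550, minus strand): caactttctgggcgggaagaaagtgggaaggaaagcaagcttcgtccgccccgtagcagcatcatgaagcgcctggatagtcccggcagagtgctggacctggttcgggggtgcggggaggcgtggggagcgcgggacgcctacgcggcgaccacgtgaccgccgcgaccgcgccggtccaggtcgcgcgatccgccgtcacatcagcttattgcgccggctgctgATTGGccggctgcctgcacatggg
Insig1 (chr5:28071162-28071411, plus strand): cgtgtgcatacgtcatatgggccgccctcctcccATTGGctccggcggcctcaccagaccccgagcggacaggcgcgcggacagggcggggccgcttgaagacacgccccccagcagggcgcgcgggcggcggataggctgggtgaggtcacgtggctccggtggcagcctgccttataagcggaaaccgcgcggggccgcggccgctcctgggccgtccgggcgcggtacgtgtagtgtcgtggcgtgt
Srebf2 (chr15:82147019-82147268, plus strand): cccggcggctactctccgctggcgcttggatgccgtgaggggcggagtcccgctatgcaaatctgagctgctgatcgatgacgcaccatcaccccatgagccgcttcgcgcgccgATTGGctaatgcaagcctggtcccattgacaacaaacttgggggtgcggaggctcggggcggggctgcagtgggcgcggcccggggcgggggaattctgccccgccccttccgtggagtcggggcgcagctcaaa
Abca1 (chr4:53159896-53160145, minus strand): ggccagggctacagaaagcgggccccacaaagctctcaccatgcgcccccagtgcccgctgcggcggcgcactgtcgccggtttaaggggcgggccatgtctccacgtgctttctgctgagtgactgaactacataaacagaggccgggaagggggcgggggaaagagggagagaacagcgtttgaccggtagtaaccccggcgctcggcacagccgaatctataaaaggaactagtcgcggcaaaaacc
Hmgcs1, which makes HMG-CoA, held 3 matches to CCAAT and 1 to the sterol element. Lss, Sc5d, Insig1 and Srebf2 held 1 CCAAT match each, and Abca1 held none.

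The synthesis enzymes and the efflux genes took different orders over the 15 groups. The mean of log2(CPM + 1) over the 18 enzymes was highest in the adipogenic cultures, at 7.14 ± 0.06 in VmSC5 and 7.29 ± 0.04 in VmSC4 (SD, n = 3 each). It was next highest in VmSC5 cultures with Treg (6.32 ± 0.06) and without Treg (6.85 ± 0.05), and in those with OSM (5.64 ± 0.08) and PBS (5.95 ± 0.05). Treg cells, floating cells and fresh stromal cells lay together between 4.87 and 5.15, and transferred cells lay lowest, at 3.98 ± 0.01 in VmSC5-5, 3.81 ± 0.07 in VmSC4-5 and 3.88 ± 0.11 in VmSC4-4. Neighbouring groups within each of those 2 bands differed by no more than the spread of their libraries.

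The mean over the 6 efflux genes was highest in floating DTR- cells (7.58) and lowest in Treg cells (4.67 ± 0.13 in KO and 4.48 ± 0.16 in WT). CPM is not scaled by gene length, so a difference of 0 between the means marks no balance of synthesis and efflux. The enzymes' mean minus the efflux mean was above 0 in the 8-day adipogenic cultures, at 0.13 ± 0.07 in VmSC5 and 0.29 ± 0.06 in VmSC4. It was also above 0 in Treg cells, at 0.48 ± 0.15 in KO and 0.62 ± 0.18 in WT. Other VmSC5 cultures lay below 0, at -0.79 ± 0.12 with Treg, -0.50 ± 0.04 without Treg and -0.823 ± 0.095 with PBS. Those with OSM lay near 0, at -0.03 ± 0.07. Its group mean was farthest below 0 in transferred cells, at -2.60 in VmSC5-5, -2.76 ± 0.12 in VmSC4-5 and -2.76 ± 0.21 in VmSC4-4, against -1.26 ± 0.44 in fresh VmSC5 and -1.23 ± 0.14 in fresh VmSC4. Floating cells lay almost as low, at -2.97 and -1.74 in the DTR+ libraries and -2.44 and -2.49 in the DTR- libraries, and DTR+ replicate 2 lay below every transferred library. The experiments were prepared and sequenced to different depths, so this order is a description. Most tests stay within an experiment. Those of cultured or transferred cells against fresh cells do not: both differ from fresh cells in depth, and the cultured wells in preparation too. There the change with culture or transfer cannot be told apart from these differences.

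**Figure D1:**
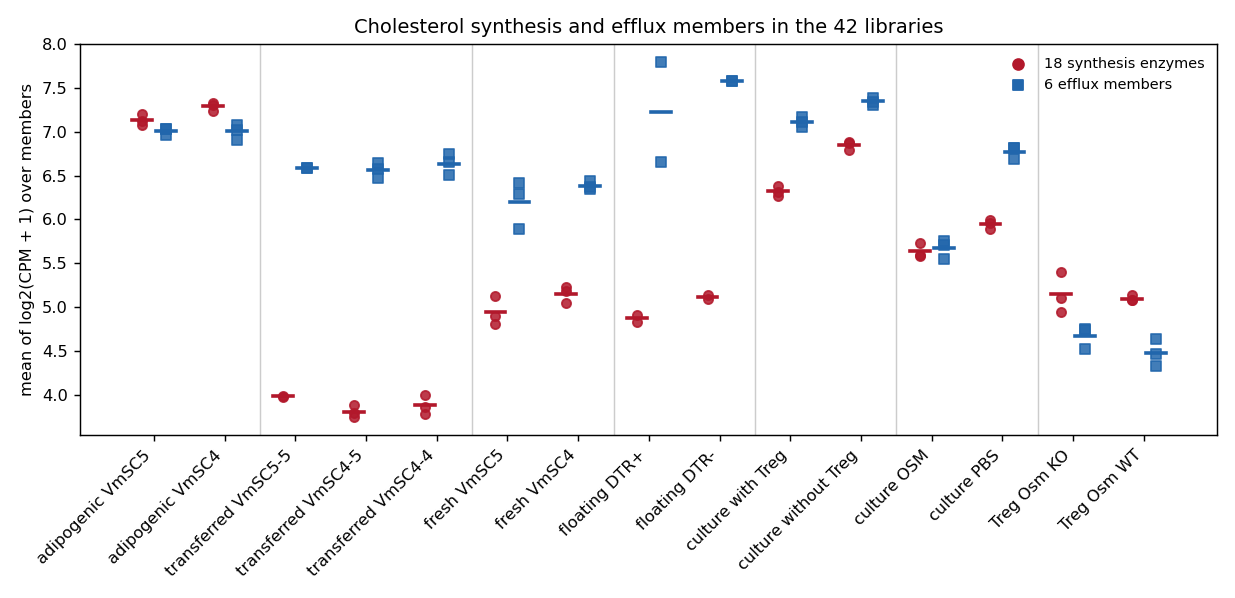
Each point is 1 library and each bar a group mean. The vertical axis is the mean log2(CPM + 1) over 18 synthesis enzymes (circles) or 6 efflux genes (squares). Grey lines divide the adipogenic, transferred, fresh and floating cells, the Treg and OSM culture experiments and the Treg cells. The enzymes sit above 7 in adipogenic cultures and below 4.1 in transferred cells, and the 2 DTR+ libraries lie apart in the efflux mean.

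Adipogenic culture was set against fresh cells to ask how differentiation changes each population. Every enzyme of the pathway rose in both. Of 32 members, 28 were called in VmSC5 (24 higher, 4 lower) and 28 in VmSC4 (23 higher, 5 lower), where called means an edgeR quasi-likelihood test with Benjamini-Hochberg adjusted p under 0.05 over all genes. All 18 enzymes were among the higher ones in each population. Of 13221 genes tested, 71% were called in VmSC5 and 70.4% in VmSC4, where 33.4% were higher and 37.6% lower in VmSC5, and 31.9% higher and 38.5% lower in VmSC4. The median log2 fold change of the enzymes was 2.84 in VmSC5 and 2.82 in VmSC4, against -0.18 and -0.24 over all genes tested. Here and below a log2 fold change is given ± its SE.

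Acat2, which starts the pathway by joining acetyl-CoA units, was at 314, 348 and 293 CPM in cultured VmSC5, against 14.9, 13.4 and 16.7 CPM in fresh VmSC5 (edgeR log2 fold change 4.84 ± 0.14, adjusted p = 1.02e-20). In VmSC4 it was at 335, 329.6 and 338 CPM in culture, against 22.5, 24.7 and 24.8 CPM fresh (edgeR log2 fold change 4.34 ± 0.13, adjusted p = 3.47e-20). Lss, which folds squalene epoxide into lanosterol, was at 439.8, 504 and 448 CPM in cultured VmSC5, against 29.5, 25.3 and 34.7 CPM in fresh VmSC5 (edgeR log2 fold change 4.38 ± 0.17, adjusted p = 9.37e-18). In cultured VmSC4 it was at 497, 533 and 531 CPM, against 31.6, 39.3 and 23.3 CPM in fresh VmSC4 (edgeR log2 fold change 4.59 ± 0.17, adjusted p = 3.88e-18). For both genes every culture library lay more than 10 times above every fresh library. The mevalonate kinase partner Pmvk rose by 3.61 ± 0.14 and 3.89 ± 0.14, and the sterol decarboxylating enzyme Nsdhl by 3.21 ± 0.14 and 3.31 ± 0.13, in VmSC5 and VmSC4. The last enzyme, Dhcr7, rose by 4.27 ± 0.18 and 4.94 ± 0.18.

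The smallest rises were those of Mvk, the mevalonate kinase, at 0.59 ± 0.17 in VmSC5 and 0.74 ± 0.17 in VmSC4, of Ebp, the sterol isomerase, at 0.70 ± 0.14 and 1.16 ± 0.14, and of Sqle, the squalene epoxidase, at 1.01 ± 0.18 and 0.83 ± 0.18. Sqle was at 87.3, 136 and 118 CPM in cultured VmSC5 and 101, 69.6 and 57.8 CPM in fresh VmSC5, so its libraries overlapped. Idi1, the isopentenyl isomerase, was low throughout, at 3.21 to 9.31 CPM in culture and 0.352 to 5.14 CPM in fresh cells, and its call in VmSC4 ended without cultured VmSC4 replicate 3 (edgeR adjusted p = 0.124).

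The regulators moved in both directions. Srebf2 was at 29.7, 29.3 and 37.9 CPM in cultured VmSC5, against 193, 202 and 169 CPM in fresh VmSC5 (edgeR log2 fold change -2.12 ± 0.15, adjusted p = 8.51e-13). In cultured VmSC4 it was at 30.4, 33.0 and 34.5 CPM, against 136, 129 and 158 CPM in fresh VmSC4 (edgeR log2 fold change -1.57 ± 0.15, adjusted p = 3.6e-10). Insig1, which is itself an SREBP target, was at 1083, 1330 and 1325 CPM in cultured VmSC5, against 80.8, 90.0 and 57.1 CPM in fresh VmSC5 (edgeR log2 fold change 4.46 ± 0.21, adjusted p = 2.89e-12). In cultured VmSC4 it was at 1050, 1285 and 1460 CPM, against 72.6, 60.9 and 98.5 CPM in fresh VmSC4 (edgeR log2 fold change 4.57 ± 0.21, adjusted p = 2.29e-12). Srebf2 fell while Insig1 and the enzymes rose, and neither Srebf2 nor Insig1 overlapped between the groups. Of all 13221 genes tested, 3612 lay wholly above and 6697 wholly below in cultured VmSC5, and 3111 and 7305 in cultured VmSC4. Scap fell (log2 fold change -0.99 ± 0.17 and -0.82 ± 0.18), and Insig2 rose by 1.27 ± 0.14 and 1.01 ± 0.14.

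Among the efflux genes, Abcg1, which passes cholesterol to HDL, was at 215, 224 and 214 CPM in cultured VmSC5, against 1.13, 3.93 and 5.98 CPM in fresh VmSC5 (edgeR log2 fold change 6.32 ± 0.43, adjusted p = 3.1e-07). In cultured VmSC4 it was at 149.9, 157 and 168 CPM, against 1.36, 1.07 and 3.17 CPM in fresh VmSC4 (edgeR log2 fold change 6.93 ± 0.45, adjusted p = 2.38e-07). Nr1h3 rose by 1.20 ± 0.13 in VmSC5 and 1.62 ± 0.13 in VmSC4. Abca1, which loads lipid-poor apolipoproteins, was at 67.5, 56.0 and 68.4 CPM in cultured VmSC5, against 88.6, 96.3 and 70.5 CPM in fresh VmSC5, and at 64.1, 62.2 and 55.4 CPM in cultured VmSC4, against 85.5, 106 and 71.5 CPM in fresh VmSC4. It was not called in either (log2 fold change 0.01 ± 0.16 and 0.01 ± 0.16, edgeR adjusted p = 0.951 and 0.947). Apoe was at 665, 684 and 645 CPM in cultured VmSC5, against 689, 871 and 1321 CPM in fresh VmSC5 (edgeR log2 fold change -0.11 ± 0.22, adjusted p = 0.665). In cultured VmSC4 it was at 1096, 1095 and 943 CPM, against 3845, 2890 and 2480 CPM in fresh VmSC4 (edgeR log2 fold change -1.01 ± 0.22, adjusted p = 0.00121). The HDL receptor gene Scarb1 rose by 6.55 ± 0.17 and 6.31 ± 0.17, while Soat1, which makes cholesterol esters, fell (log2 fold change -1.49 ± 0.18 and -2.09 ± 0.18) as did Npc1 (log2 fold change -1.33 ± 0.22 and -0.99 ± 0.21). Stard4 was called higher in VmSC5 alone (1.03 ± 0.21, edgeR adjusted p = 0.000122, against 0.40 ± 0.21 and 0.0947 in VmSC4).

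CPM ratios and fold changes differ in this comparison because the fold changes use TMM scaling. With library totals alone the median of all genes moved by -0.43 in VmSC5 and -0.54 in VmSC4, and 16 and 15 enzymes were called higher. The calls that ended were those of Mvk and Ebp in VmSC5 (edgeR adjusted p = 0.356 and 0.0635) and of Mvk, Sqle and Idi1 in VmSC4 (0.275, 0.167 and 0.0715). Abca1 was then called lower in both (log2 fold change -0.42 and -0.54, edgeR adjusted p = 0.0214 and 0.00413), as were Nr1h2 in both, Apoe in VmSC5 and Mylip in VmSC4. Transcript length also moved with the result. The median over all genes ran from 0.58 in VmSC5 and 0.54 in VmSC4 for genes under 1500 exonic bases to -0.72 and -0.82 for those over 8000. In the length bin from 3000 to 5000 bases the 11 members had medians of 2.697 and 1.763, against -0.124 and -0.14 for its 3669 genes. The 8 members from 1500 to 3000 bases had 2.031 and 2.452, against 0.289 and 0.242 for all genes there. The 8 members from 5000 to 8000 bases had 1.319 and 1.133, against -0.426 and -0.483. The 5 members over 8000 bases had 0.012 and 0.012. The cultures also held 6.05% to 7.26% mitochondrial counts, against 0.0722% to 0.423% in fresh cells, and stromal markers summed to 1073 to 1426 CPM in culture, against 39260 to 45510 CPM fresh. Beyond the length bins, the part of these measures in the members' values was not tested.

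After culture no member was called between the populations in the fit of all 4 groups. Cultured VmSC5 against cultured VmSC4 gave 0 called members of 32 in edgeR and in DESeq2, with 3 at an unadjusted p under 0.05, where 0.34% of all genes were called. For Insig1 the difference was -0.06 ± 0.18, for Srebf2 -0.06 ± 0.17, and for Abca1 0.04 ± 0.17. Apoe was at 665, 684 and 645 CPM in VmSC5 and 1096, 1095 and 943 CPM in VmSC4 (edgeR log2 fold change -0.69 ± 0.22, adjusted p = 0.381), and Abcg1 at 215, 224 and 214 CPM and 149.9, 157 and 168 CPM (edgeR log2 fold change 0.43 ± 0.32, adjusted p = 0.838). The libraries of these 2 efflux genes did not overlap. Of all 13221 genes tested, 1055 lay wholly above and 994 wholly below in cultured VmSC5. Fitted on the cultured groups alone, 3 members and 2.32% of 9286 genes were called: Apoe (log2 fold change -0.65, edgeR adjusted p = 3.62e-06), Abcg1 (0.46, 0.00316) and Sc5d (-0.28, 0.0447). The enzymes leaned to the negative side in 17 of 18, with a median of -0.19 against -0.02 over all genes tested. The response of VmSC5 minus that of VmSC4, tested as an interaction, called 0 members in edgeR and in DESeq2, with 9 at an unadjusted p under 0.05 and 2.87% of all genes called, and it called 1 without fresh VmSC5 replicate 3 or cultured VmSC5 replicate 2. Of 49 further cholesterol genes, 44 were tested, and 21 rose and 12 fell in VmSC5, against 26 and 11 in VmSC4. Fabp5, a lipid carrier, rose by 7.91 ± 0.15 and 8.08 ± 0.15. Lpcat3, a phospholipid acyltransferase and known LXR target, rose by 4.35 ± 0.12 and 4.51 ± 0.12, and Cav1, the caveolar cholesterol-binding protein, by 3.47 ± 0.13 and 3.61 ± 0.14.

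**Figure D2:**
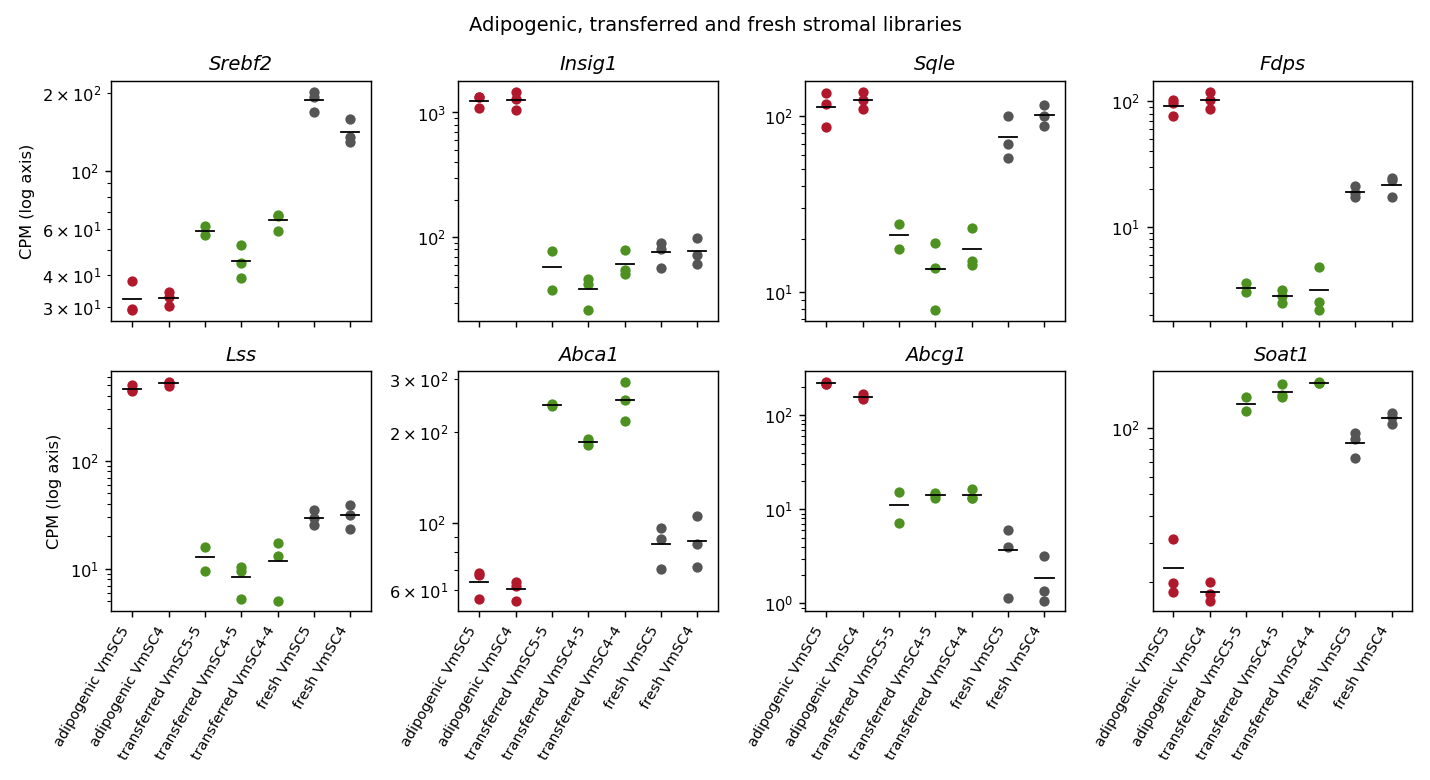
CPM of 8 members on log axes, 1 panel a gene, with 1 point a library and bars at the group means, for adipogenic, transferred and fresh cells. Insig1, Fdps, Lss and Abcg1 are highest in the adipogenic cultures, while Abca1 and Soat1 are highest in the transferred cells.

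Transferred cells recovered from recipients were set against the fresh cells of their own population. Here the pathway ran the other way: enzymes were lower and both transporters higher. Of 31 members tested (Idi1 had too few counts), 22 were called in VmSC5-5 against fresh VmSC5 (4 higher, 18 lower) and 27 in VmSC4-4 against fresh VmSC4 (5 higher, 22 lower). Of all 13947 genes tested, 46.4% were called in VmSC5-5 (23.9% higher, 22.4% lower) and 46.1% in VmSC4-4 (21.4% higher, 24.7% lower). Of 17 enzymes tested, 12 were lower and 0 higher in VmSC5-5, and 16 were lower and 1 higher in VmSC4-4. Their median log2 fold change was -1.09 and -1.27, against 0.01 and -0.02 over all genes tested.

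Fdps, which builds farnesyl diphosphate, was at 3.02 and 3.56 CPM in VmSC5-5, against 21.1, 17.4 and 18.6 CPM in fresh VmSC5 (edgeR log2 fold change -2.59 ± 0.33, adjusted p = 7.75e-07). In VmSC4-4 it was at 4.79, 2.54 and 2.18 CPM, against 17.3, 23.5 and 24.5 CPM in fresh VmSC4 (edgeR log2 fold change -2.73 ± 0.30, adjusted p = 5.87e-08). Fdft1, which makes squalene, was at 17.1 and 18.9 CPM in VmSC5-5, against 70.8, 50.7 and 48.9 CPM in fresh VmSC5 (edgeR log2 fold change -1.71 ± 0.23, adjusted p = 1.31e-06), and fell (log2 fold change -1.76 ± 0.20) in VmSC4-4. Sqle was at 23.2, 14.2 and 15.1 CPM in VmSC4-4, against 88.5, 100.3 and 116 CPM in fresh VmSC4 (edgeR log2 fold change -2.49 ± 0.26, adjusted p = 3.12e-07), and fell (log2 fold change -1.91 ± 0.29) in VmSC5-5. Every transferred library lay below every fresh one for these 3 genes. Of all 13947 genes tested, 4133 lay wholly below and 4791 wholly above in VmSC5-5, and 4224 and 3416 in VmSC4-4. Sc5d, the sterol desaturase (-1.01 ± 0.21 and -1.97 ± 0.19 in VmSC5-5 and VmSC4-4), Mvd, the mevalonate decarboxylase (-1.56 ± 0.22 and -1.27 ± 0.20), and Mvk (-1.61 ± 0.25 and -1.55 ± 0.23) fell as well. Dhcr7 was the 1 enzyme that was higher, in VmSC4-4 (edgeR log2 fold change 0.51 ± 0.19, adjusted p = 0.033), and its difference in VmSC5-5 was -0.34 ± 0.22 (edgeR adjusted p = 0.203).

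Srebf2 fell here as well, to 56.7 and 61.7 CPM in VmSC5-5, against 193, 202 and 169 CPM in fresh VmSC5 (edgeR log2 fold change -1.72 ± 0.15, adjusted p = 2e-09). In VmSC4-4 it was at 58.8, 68.1 and 67.4 CPM, against 136, 129 and 158 CPM in fresh VmSC4 (edgeR log2 fold change -1.10 ± 0.13, adjusted p = 2.47e-07). Insig1, at 37.6 and 77.0 CPM in VmSC5-5 and 80.8, 90.0 and 57.1 CPM in fresh VmSC5, was not called. It was at 54.2, 78.8 and 51.1 CPM in VmSC4-4 and 72.6, 60.9 and 98.5 CPM in fresh VmSC4 and was not called there either (edgeR adjusted p = 0.254 and 0.352). Srebf2 was thus below the fresh level in both the cultured and the transferred cells, whereas the enzymes rose in one and fell in the other.

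Abca1 was at 244 and 249 CPM in VmSC5-5, against 88.6, 96.3 and 70.5 CPM in fresh VmSC5 (edgeR log2 fold change 1.48 ± 0.15, adjusted p = 1.32e-08). In VmSC4-4 it was at 219, 293 and 256 CPM, against 85.5, 106 and 71.5 CPM in fresh VmSC4 (edgeR log2 fold change 1.57 ± 0.14, adjusted p = 1.18e-09). Abcg1 was at 15.3 and 7.12 CPM in VmSC5-5, against 1.13, 3.93 and 5.98 CPM in fresh VmSC5 (edgeR log2 fold change 1.56 ± 0.48, adjusted p = 0.0122). In VmSC4-4 it was at 13.1, 13.2 and 16.3 CPM, against 1.36, 1.07 and 3.17 CPM in fresh VmSC4 (edgeR log2 fold change 2.95 ± 0.47, adjusted p = 3.4e-05). Every transferred library lay above every fresh one for both transporters. Their receptor genes went down: Nr1h3 (log2 fold change -0.995 ± 0.15 and -1.33 ± 0.14) and Nr1h2 (-0.83 ± 0.16 and -0.65 ± 0.14) fell in VmSC5-5 and VmSC4-4. Apoe was at 1451 and 1326 CPM in VmSC5-5 and 689, 871 and 1321 CPM in fresh VmSC5 and was not called (edgeR log2 fold change 0.47 ± 0.23, adjusted p = 0.114). It fell in VmSC4-4, to 1569, 1605 and 1883 CPM, against 3845, 2890 and 2480 CPM in fresh VmSC4 (edgeR log2 fold change -0.84 ± 0.21, adjusted p = 0.00464). Soat1 rose by 0.53 ± 0.13 and 0.55 ± 0.12, while Scarb1 (log2 fold change -0.86 ± 0.29 and -1.08 ± 0.26) and Stard4 (-1.28 ± 0.37 and -1.46 ± 0.32) fell.

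Some of these calls ended when 1 library was left out. In VmSC5-5, the call of Abcg1 ended without VmSC5-5 replicate 1 (0.293), of Lss without VmSC5-5 replicate 1 (0.0909), of Soat1 without VmSC5-5 replicate 1 (0.07) and of Stard4 without VmSC5-5 replicate 2 (0.069) (edgeR adjusted p in parentheses). Scarb1 lost its call without fresh VmSC5 replicate 2 (0.114) or VmSC5-5 replicates 1 and 2 (0.138 and 0.0532), and Insig2 without fresh VmSC5 replicate 3 (0.0592) or VmSC5-5 replicates 1 and 2 (0.0776 and 0.0715). In VmSC4-4, the call of Hmgcs1 ended without fresh VmSC4 replicate 3 (0.0885), and of Tm7sf2 without VmSC4-4 replicates 1 and 3 (0.0968 and 0.0623). Dhcr7 lost its call without fresh VmSC4 replicates 1 and 2 (0.0672 and 0.0903) or VmSC4-4 replicates 1 and 3 (0.0805 and 0.101), and Npc1 without fresh VmSC4 replicate 3 (0.0701) or VmSC4-4 replicates 2 and 3 (0.123 and 0.058). Transcript length moved with transfer too, in the opposite sense to culture. Counts in genes with more than 5000 exonic bases made up 46.5% to 53.9% of transferred libraries and 36.0% to 38.1% of fresh ones, and the median over all genes ran from -0.25 (VmSC5-5) and -0.34 (VmSC4-4) under 1500 bases to 0.31 and 0.34 over 8000. Within the bin from 5000 to 8000 bases the 8 members had medians of -0.76 and -1.004, against 0.11 and 0.09 over its 3267 genes, whereas the 5 members over 8000 bases had 0.08 and 0.39. Stromal markers summed to 84880 to 135000 CPM in transferred cells, against 39260 to 45510 CPM in fresh ones, and endothelial markers to 65.6 to 247 CPM, against 54.1 to 133 CPM. Most of the endothelial sum was Tek, at means of 211.4 CPM in VmSC5-5, 125.7 CPM in VmSC4-5 and 76.3 CPM in VmSC4-4. Its means in fresh cells were 115.5 CPM in VmSC5 and 54.8 CPM in VmSC4. Of 4 endothelial markers tested, Tek and Pecam1 were higher in VmSC5-5, and Tek and Kdr in VmSC4-4. Adipocyte markers summed to 1072 to 1606 CPM in transferred cells, against 1449 to 2097 CPM in fresh ones, and of 6 tested, 3 were lower in VmSC5-5 (Fabp4, Pparg and Lpl) and 4 in VmSC4-4 (these and Cd36). Of 5 macrophage markers tested, 2 were higher and 1 lower in VmSC5-5, and 2 were lower in VmSC4-4. Beyond the length bins, the part of these measures in the members' values was not tested. Of the 44 further cholesterol genes tested, 12 rose and 17 fell in VmSC5-5, and 9 rose and 18 fell in VmSC4-4. Pltp, the phospholipid transfer protein and a known LXR target, rose by 1.61 ± 0.15 and 2.01 ± 0.14, Cyb5r3, which passes electrons to sterol oxidation, rose by 1.40 ± 0.15 and 1.58 ± 0.14, and Cyp27a1, which makes a side-chain oxysterol, fell (log2 fold change -1.57 ± 0.14 and -1.76 ± 0.13).

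**Figure D3:**
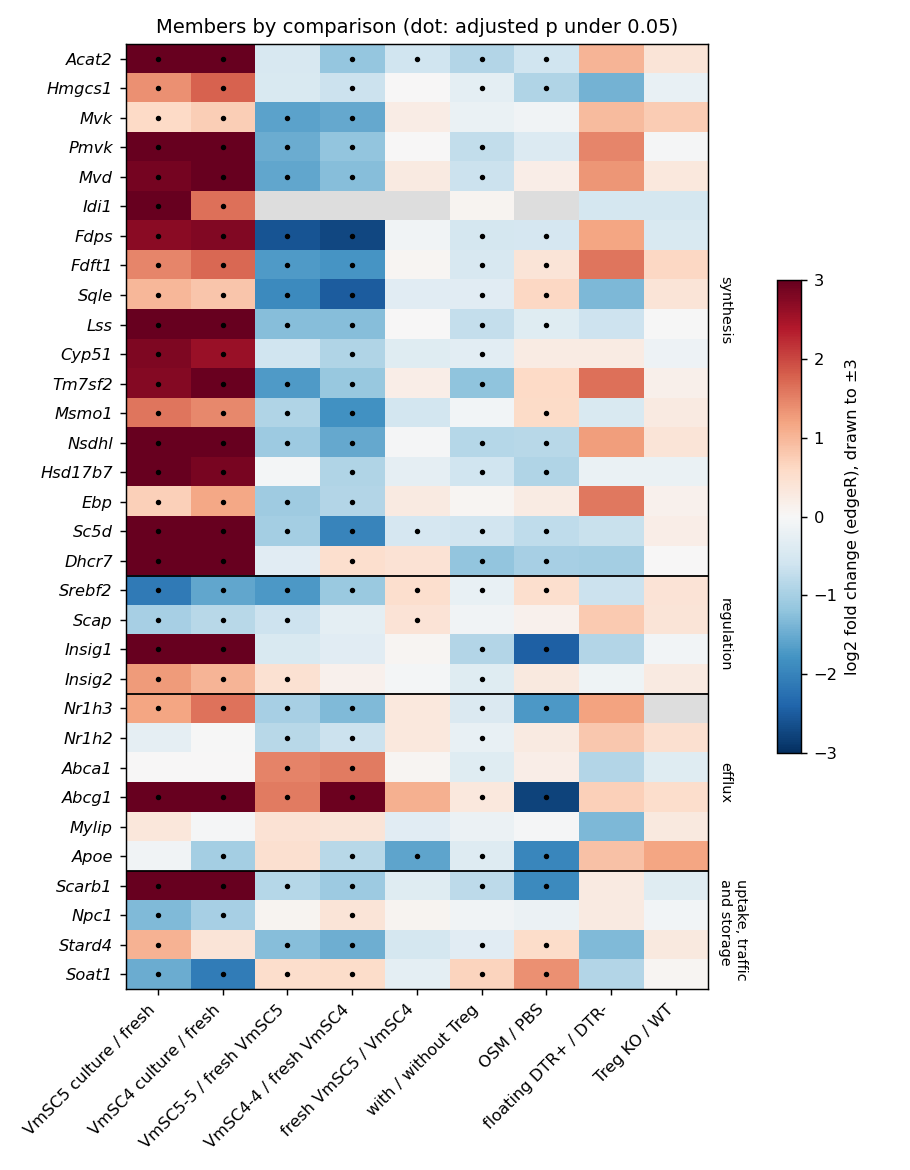
Log2 fold change of each member (rows, grouped by role) in 9 comparisons (columns), on a colour scale drawn to ±3, with a dot where edgeR's adjusted p was under 0.05 and grey where a member was not tested. The enzymes form a red block in both culture columns and, apart from Dhcr7 in VmSC4-4 and Idi1, which is grey, a mostly blue block in both transfer columns, and no member has a dot in the last 2 columns.

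The transferred groups were set against each other to ask whether VmSC4 cells recovered as VmSC5 differ in these genes. VmSC4-5 against VmSC4-4 gave 0 called members of 31 in edgeR and 1 in DESeq2, with 6 at an unadjusted p under 0.05 and 1.77% of all genes called. The member called by DESeq2 was Srebf2, at 52.3, 44.6 and 38.8 CPM in VmSC4-5 and 58.8, 68.1 and 67.4 CPM in VmSC4-4 (edgeR log2 fold change -0.44 ± 0.14, adjusted p = 0.0992). VmSC5-5 against VmSC4-5 gave 0 in both tools, with 4 at an unadjusted p under 0.05 and 1.15% of all genes called. VmSC5-5 against VmSC4-4 gave 1 of 31, against 3.41% of all genes: Nr1h3, at 69.6 and 70.6 CPM in VmSC5-5 and 42.9, 46.3 and 46.4 CPM in VmSC4-4 (edgeR log2 fold change 0.64 ± 0.16, adjusted p = 0.0168). That call ended without VmSC4-4 replicates 1 and 2 (0.0968 and 0.0535) or VmSC5-5 replicates 1 and 2 (0.174 and 0.134). Abca1 stood at 189.9, 188 and 182 CPM in VmSC4-5, below every library of the other 2 transferred groups. Of all 13947 genes tested, 2006 lay wholly below in VmSC4-5 against VmSC4-4, and 2816 wholly above in VmSC5-5 against VmSC4-5.

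Fresh VmSC5 and fresh VmSC4 differed in few members. Of 31 tested, 5 were called (2 higher and 3 lower in VmSC5), a share near the 18.4% of all 13947 genes tested (7.41% higher, 11% lower). Apoe was at 689, 871 and 1321 CPM in VmSC5, against 3845, 2890 and 2480 CPM in VmSC4 (edgeR log2 fold change -1.58 ± 0.22, adjusted p = 0.000171), with no overlap. Srebf2 was at 193, 202 and 169 CPM in VmSC5, against 136, 129 and 158 CPM in VmSC4 (edgeR log2 fold change 0.50 ± 0.12, adjusted p = 0.00544), again with no overlap. Of all 13947 genes tested, 1435 lay wholly above and 3091 wholly below in fresh VmSC5. Markers of other cells moved in both directions. Of 5 macrophage markers tested, Lyz2 and Csf1r were lower in VmSC5, with Lyz2 at 1.96, 2.45 and 0 CPM in VmSC5 and 16.5, 10.6 and 4.62 CPM in VmSC4. Wt1, the 1 mesothelial marker tested, was lower as well (log2 fold change -0.56 ± 0.14). Msln, Upk3b and Lrrn4 were at 0 in fresh VmSC5 and at most 0.24 CPM in fresh VmSC4. Of 4 endothelial markers tested, Tek was higher (log2 fold change 1.16 ± 0.14) and Pecam1 lower (-2.41 ± 0.56). The Treg marker Il2ra was higher (1.555 ± 0.32). The apolipoprotein gene Apoc1, which the naming rule did not pick, stood at 1.55, 2.98 and 1.64 CPM in VmSC5, against 12.9, 10.9 and 5.99 CPM in VmSC4. Their part in the Apoe difference was not tested. Acat2 (edgeR log2 fold change -0.59 ± 0.20, adjusted p = 0.0394) and Sc5d (edgeR log2 fold change -0.50 ± 0.17, adjusted p = 0.0455) were lower and Scap (edgeR log2 fold change 0.42 ± 0.14, adjusted p = 0.0328) was higher in VmSC5. Insig1 (edgeR log2 fold change 0.06 ± 0.27, adjusted p = 0.912) and Abca1 (edgeR log2 fold change 0.05 ± 0.13, adjusted p = 0.835) were not called. The Acat2 call ended without fresh VmSC4 replicates 1, 2 and 3 (0.0517, 0.0769 and 0.111) or fresh VmSC5 replicates 1, 2 and 3 (0.0875, 0.153 and 0.0539). That of Sc5d ended without fresh VmSC4 replicates 2 and 3 (0.0864 and 0.196) or fresh VmSC5 replicates 2 and 3 (0.0953 and 0.344), and that of Scap without fresh VmSC4 replicates 2 and 3 (0.11 and 0.0942) or fresh VmSC5 replicate 3 (0.159). The count of called members ran from 2 to 9 as single libraries were left out. It was 9 without fresh VmSC5 replicate 1. It was 2 without replicate 2 of fresh VmSC4 or replicate 3 of fresh VmSC5. It was 3 without replicate 3 of fresh VmSC4 or replicate 2 of fresh VmSC5.

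The floating cells ask whether loss of Treg cells changes the fat cells of the tissue. No member was called in DTR+ against DTR- cells, by edgeR or by DESeq2, with 5 of 32 at an unadjusted p under 0.05 and 2.43% of all 11803 genes called by edgeR. Of the members, 3 lay above and 11 below in both DTR+ libraries, and 18 overlapped. Of all genes tested, 51.1% did not overlap (15.4% above, 35.7% below), so the members' share was no larger than that of all genes. Fdft1 was at 282 and 267 CPM in DTR+, against 137 and 111 CPM in DTR- (edgeR log2 fold change 1.60 ± 0.61, adjusted p = 0.19). Its exons overlap those of Ctsb, a lysosomal protease, on the other strand. Sqle was at 6.41 and 3.41 CPM in DTR+, against 15.7 and 16.5 CPM in DTR- (edgeR log2 fold change -1.34 ± 0.68, adjusted p = 0.333). Insig1 was at 178 and 102 CPM in DTR+, against 315 and 359.8 CPM in DTR- (edgeR log2 fold change -0.89 ± 0.59, adjusted p = 0.454). Srebf2 was at 47.3 and 16.5 CPM in DTR+ and 47.9 and 76.1 CPM in DTR-. Abca1 was at 317 and 29.2 CPM in DTR+ and 234 and 486 CPM in DTR-, and Apoe at 10190 and 12980 CPM in DTR+ and 9764 and 8091 CPM in DTR-. Abca1 and Srebf2 in DTR+ replicate 3 lay far below both DTR- libraries, whereas DTR+ replicate 2 lay between these for Abca1 and just under them for Srebf2.

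The 2 DTR+ libraries did not move alike. Of the 13 members with more than 5000 exonic bases, 4 were above the DTR- mean in replicate 2 and 0 in replicate 3 (medians of the log2 ratio -0.25 and -1.85). Of the 19 shorter members, 9 were above it in replicate 2 and 12 in replicate 3 (medians -0.05 and 0.81). Leaving out DTR+ replicate 2 gave 20 called members, of which 9 enzymes were higher and 3 lower, with 42.6% of all 12596 genes called. Leaving out DTR+ replicate 3 gave 1, Fdft1, with 7.15% of all 12846 genes called, and leaving out either DTR- library gave 0. Library totals alone moved the median of all genes by -0.38 in this comparison and called 0 members and 0 genes. Endothelial markers summed to 13.2 to 39.8 CPM in DTR+, against 363.6 to 458 CPM in DTR-, stromal markers to 199 to 234 CPM, against 601 to 1664 CPM, and macrophage markers to 204 to 284 CPM, against 364 to 452 CPM. All 5 endothelial, 3 of 5 tested stromal and 2 of 4 mesothelial markers were called lower. Of the 10 macrophage markers none was called lower, and Cd14 was higher, at 69.7 and 114 CPM in DTR+, against 16.4 and 10.6 CPM in DTR-. Pdgfra and Pdgfrb were at 0 in DTR+ replicate 3, and Msln in DTR+ replicate 2. Their part in the members' values was not tested.

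**Figure D4:**
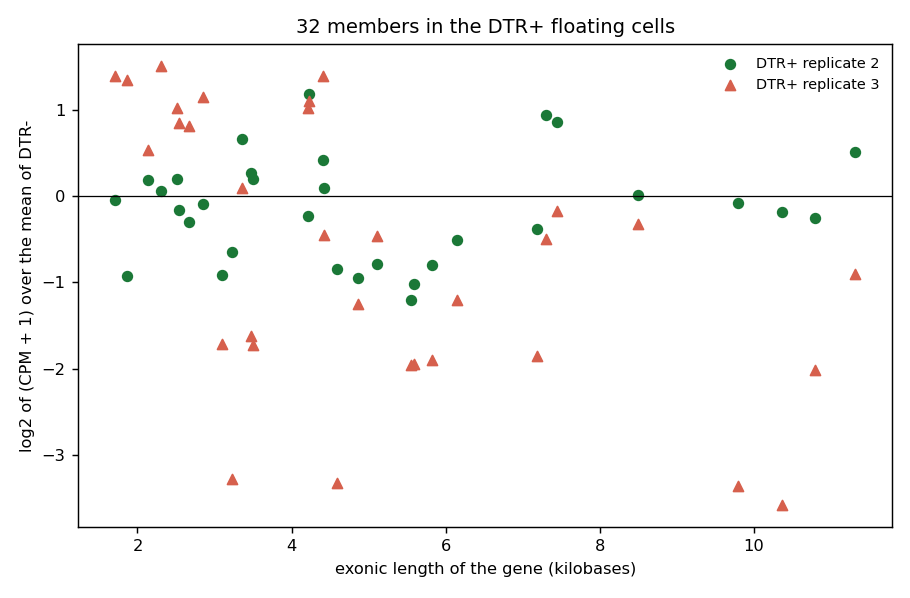
Each point is a member, placed by the exonic length of the gene in kilobases and by the log2 ratio of its CPM + 1 in DTR+ replicate 2 (circles) or replicate 3 (triangles) to the mean of DTR- cells. In replicate 3 all 13 members beyond 5 kilobases lie below 0 and 12 of the 19 shorter ones above it, while replicate 2 has 4 and 9 above it.

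The cultures with Treg ask whether Treg products act on differentiating VmSC5. With Treg, most of the pathway was lower, by less than 1 log2 unit except for Dhcr7 and Tm7sf2, a sterol reductase (-1.20 ± 0.16). Of 32 members, 2 were higher and 23 lower, where 43.4% of all 12356 genes were called, 22.4% higher and 21% lower. Of 18 enzymes, 14 were lower and 0 higher, with a median log2 fold change of -0.56 against -0.003 over all genes tested. Dhcr7 was at 93.2, 84.5 and 96.6 CPM with Treg, against 222, 204 and 205 CPM without Treg (edgeR log2 fold change -1.19 ± 0.07, adjusted p = 5.77e-17). Nsdhl was at 121, 116 and 126 CPM with Treg, against 230.3, 231 and 198 CPM without Treg (edgeR log2 fold change -0.85 ± 0.07, adjusted p = 6.04e-13). Lss was at 141, 152 and 167 CPM with Treg, against 266, 251 and 244 CPM without Treg (edgeR log2 fold change -0.72 ± 0.07, adjusted p = 2.41e-11). Pmvk was at 90.6, 85.8 and 96.1 CPM, against 159.6, 154 and 146 CPM (edgeR log2 fold change -0.74 ± 0.07, adjusted p = 3.23e-11). None of these libraries overlapped between the groups. Of all 12356 genes tested, 3146 lay wholly above and 3257 wholly below with Treg. Mvk, Idi1, Msmo1 and Ebp were the 4 enzymes not called, with differences of -0.19 ± 0.11, 0.09 ± 0.21, -0.08 ± 0.08 and 0.07 ± 0.09.

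Insig1 was at 675, 589 and 409 CPM with Treg, against 1065, 969 and 1080 CPM without Treg (edgeR log2 fold change -0.88 ± 0.21, adjusted p = 0.0282). Srebf2 was at 57.0, 58.8 and 67.7 CPM, against 72.6, 69.0 and 75.3 CPM (edgeR log2 fold change -0.23 ± 0.08, adjusted p = 0.0241). Nr1h3 was at 205, 203 and 219.6 CPM with Treg, against 295, 285 and 280.3 CPM without Treg (edgeR log2 fold change -0.44 ± 0.06, adjusted p = 1.3e-07). Apoe was at 1310, 1418 and 1448 CPM, against 1880, 1846 and 1784 CPM (edgeR log2 fold change -0.39 ± 0.05, adjusted p = 2.13e-07), and Abca1 at 181, 191 and 169 CPM, against 242, 239 and 224 CPM (edgeR log2 fold change -0.37 ± 0.06, adjusted p = 8.5e-06). Abcg1 went up instead, to 152, 159.7 and 157 CPM with Treg, against 121, 139 and 121 CPM without Treg (edgeR log2 fold change 0.31 ± 0.07, adjusted p = 0.000328). Soat1 was the other member that rose, by 0.66 ± 0.10, and Scarb1 fell (log2 fold change -0.79 ± 0.06). The Srebf2 call ended without the without-Treg replicates 1 and 3 (0.0589 and 0.0636) or the with-Treg replicates 1 and 2 (0.142 and 0.092) (adjusted p in parentheses). Insig1 lost its call without the without-Treg replicates 1, 2 and 3 (0.0944, 0.0776 and 0.0911) or the with-Treg replicate 2 (0.0804). Nr1h2 did so without the without-Treg replicate 1 (0.0643) or the with-Treg replicates 1 and 2 (0.142 and 0.0971) and Stard4 without the without-Treg replicates 1 and 3 (0.0686 and 0.0542). Of 45 further cholesterol genes tested, 14 rose and 18 fell. Npc2, the soluble partner of Npc1 in lysosomes, rose to 2193, 2077 and 2177 CPM, against 1026, 1035 and 977 CPM (edgeR log2 fold change 1.10 ± 0.05, adjusted p = 3.94e-19). In contrast Scd1, the fatty acid desaturase (log2 fold change -1.40 ± 0.05), and Cyp27a1 (-1.44 ± 0.08) fell.

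The adipocyte program moved with these values. Adipocyte markers summed to 23510 to 26170 CPM with Treg, against 35910 to 38340 CPM without Treg, and stromal markers to 10730 to 12510 CPM, against 4040 to 4704 CPM. Of 8 adipocyte markers 7 were lower, and of 6 stromal markers 5 were higher and 1 lower. Macrophage markers summed to 168 to 196 CPM with Treg, against 269 to 309 CPM without Treg, a difference that lay in Lyz2 (24.96, 29.9 and 29.2 CPM with Treg, against 186, 162 and 181 CPM without Treg). Without Lyz2 the sum was 143 to 166 CPM with Treg, against 107 to 125 CPM without Treg, and Csf1r, Mrc1 and Fcgr1 were higher. Of 4 mesothelial markers 3 were higher (summed 29.2 to 51.7 CPM with Treg, against 17.6 to 21.5 CPM without Treg). Mitochondrial counts made up 1.78% to 2.03% with Treg, against 4.13% to 4.42% without Treg. Foxp3, Cd3e and Cd4 were at 0 counts in the wells with Treg (0 allows up to 3 counts a library, for counting error only), and the 6 Treg markers summed to 3.06 to 4.16 CPM there, against 3.47 to 4.09 CPM without Treg. The part of these measures in the members' values was not tested.

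OSM was tested on VmSC5 as a candidate mediator of the Treg effect. It split the pathway. Of 31 members tested, 6 were higher and 13 lower, where 45.8% of all 9825 genes were called, 22.8% higher and 23% lower. Of 17 enzymes, 3 were higher and 8 lower, with a median of -0.37 against 0.004 over all genes tested. Hmgcs1 was at 185, 198 and 205 CPM with OSM, against 384, 370 and 433 CPM with PBS (edgeR log2 fold change -0.91 ± 0.09, adjusted p = 1.45e-11). Sc5d was at 93.9, 92.3 and 99.2 CPM, against 177, 168 and 177 CPM (edgeR log2 fold change -0.76 ± 0.12, adjusted p = 3.09e-07). Nsdhl was at 60.2, 57.8 and 53.9 CPM, against 100.4, 116 and 113 CPM (edgeR log2 fold change -0.84 ± 0.14, adjusted p = 2.18e-06). Sqle went up, to 116, 125 and 145 CPM with OSM, against 78.8, 95.7 and 93.8 CPM with PBS (edgeR log2 fold change 0.63 ± 0.13, adjusted p = 6.38e-05). Msmo1, the methylsterol oxidase, rose by 0.58 ± 0.13 and Fdft1 by 0.38 ± 0.15, while Dhcr7 (log2 fold change -1.01 ± 0.21) and Hsd17b7, a 3-ketosteroid reductase (-0.91 ± 0.20), fell. The other lower enzymes were Acat2 (-0.59 ± 0.16), Fdps (-0.51 ± 0.22) and Lss (-0.37 ± 0.14).

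The widest falls were outside the enzymes. Insig1 was at 70.6, 62.5 and 82.1 CPM with OSM, against 459, 401 and 429.7 CPM with PBS (edgeR log2 fold change -2.46 ± 0.11, adjusted p = 1.78e-24). Abcg1 was at 10.4, 9.33 and 13.1 CPM with OSM, against 77.3, 87.1 and 82.7 CPM with PBS (edgeR log2 fold change -2.77 ± 0.21, adjusted p = 1.11e-15). Apoe was at 137, 177 and 225 CPM, against 753, 782 and 744 CPM (edgeR log2 fold change -1.96 ± 0.12, adjusted p = 8.06e-13), and Nr1h3 at 34.5, 57.8 and 52.6 CPM, against 164, 188 and 159 CPM (edgeR log2 fold change -1.73 ± 0.15, adjusted p = 2.22e-14). None of these 4 overlapped between the groups. Of all 9825 genes tested, 2175 lay wholly above and 3087 wholly below with OSM. Abca1, the other transporter, was at 144, 177 and 146 CPM with OSM and 155, 133 and 149 CPM with PBS and was not called (edgeR log2 fold change 0.20 ± 0.12, adjusted p = 0.158). Srebf2 was at 93.9, 110.1 and 92.0 CPM with OSM, against 63.4, 91.4 and 63.1 CPM with PBS (edgeR log2 fold change 0.50 ± 0.15, adjusted p = 0.00406). Scarb1 fell (log2 fold change -1.91 ± 0.19), and Soat1 rose by 1.36 ± 0.12, to 179.7, 167 and 206 CPM with OSM, against 72.6, 77.5 and 81.9 CPM with PBS. Library totals alone moved the median of all genes by -0.10, and the Stard4 and Fdft1 calls then ended (edgeR adjusted p = 0.103 and 0.145).

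The weaker OSM calls ended when any of several libraries was left out. Fdft1 was no longer called without PBS replicates 1, 2 and 3 (0.054, 0.104 and 0.138) or OSM replicates 2 and 3 (0.125 and 0.0969) (adjusted p in parentheses). The same held for Fdps without PBS replicates 1 and 3 (0.215 and 0.0801) or OSM replicates 1, 2 and 3 (0.133, 0.0805 and 0.0698). Stard4 was not called without PBS replicates 1 and 2 (0.176 and 0.172) or OSM replicates 2 and 3 (0.132 and 0.0861), nor Lss without PBS replicate 3 (0.0952) or OSM replicate 1 (0.216). Of 40 further cholesterol genes tested, 7 rose and 15 fell. Cav1 was at 171, 174 and 148 CPM with OSM, against 2510, 2455 and 2398 CPM with PBS (edgeR log2 fold change -3.81 ± 0.09, adjusted p = 1.71e-35). Fabp5 fell (log2 fold change -2.02 ± 0.09) and Cyp7b1, an oxysterol hydroxylase, rose to 222, 163 and 183 CPM with OSM, against 4.64, 4.33 and 4.26 CPM with PBS (edgeR log2 fold change 5.51 ± 0.21, adjusted p = 5.24e-27). Adipocyte markers summed to 1643 to 2324 CPM with OSM, against 21760 to 24620 CPM with PBS, and stromal markers to 47740 to 57890 CPM, against 10750 to 11130 CPM. Macrophage markers summed to 304 to 482 CPM with OSM, against 324 to 340 CPM with PBS, and 2 of 8 tested were higher. All 4 endothelial markers tested were higher (summed 126 to 156 CPM with OSM, against 47.1 to 54.6 CPM with PBS). Of 4 mesothelial markers Msln, Upk3b and Lrrn4 were lower and Wt1 was higher. Mitochondrial counts made up 1.53% to 1.64% with OSM, against 2.4% to 2.92% with PBS, and genes with more than 5000 exonic bases 39.2% to 41.4%, against 35.5% to 35.6%. The part of these measures in the members' values was not tested.

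**Figure D5:**
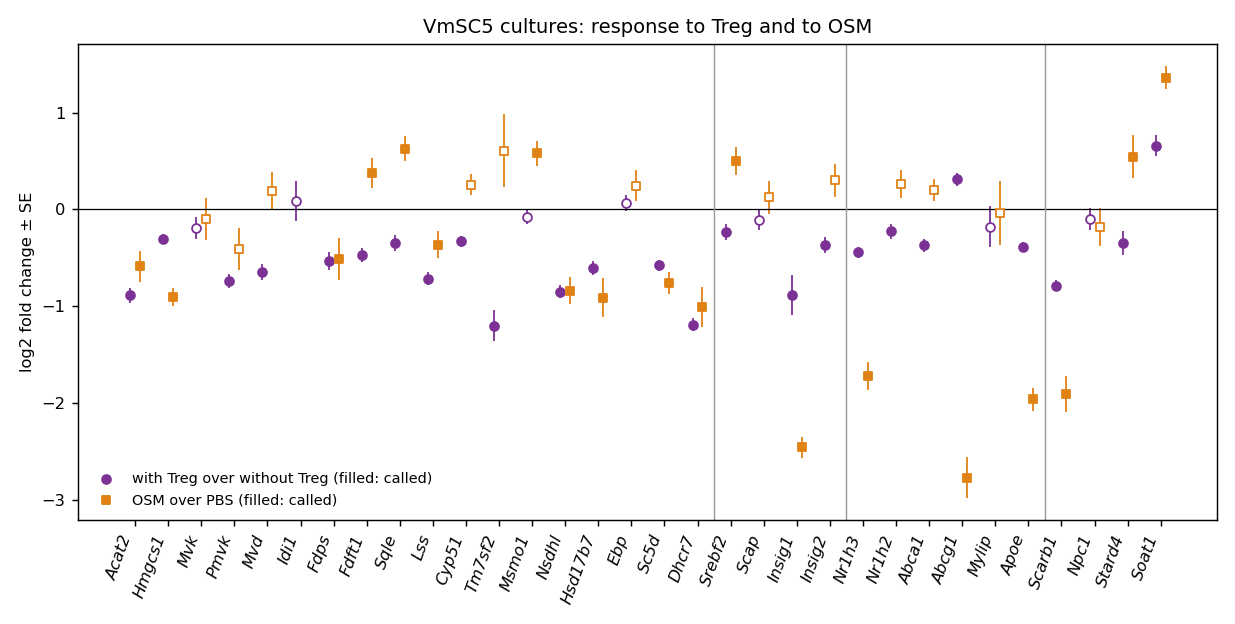
Log2 fold change with its SE for each member, for VmSC5 with Treg over without Treg (circles) and with OSM over PBS (squares), filled where called, with grey lines between roles. Insig1, Nr1h3, Abcg1, Apoe and Scarb1 lie far lower under OSM, and Soat1 lies above 0 in both. Sqle, Fdft1, Srebf2 and Stard4, all called in both, lie above 0 under OSM and below it with Treg.

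The OSM response and the Treg response share no library, and their difference was tested as an interaction over the 4 culture groups. It was called in 19 of 32 members, 13 more positive and 6 more negative under OSM, where 32.5% of all 12112 genes were called (15% more positive, 17.5% more negative). Abcg1 had the largest difference, with -2.77 under OSM and 0.31 with Treg (difference -3.05 ± 0.20, edgeR adjusted p = 7.72e-17). Apoe had -1.96 and -0.39 (difference -1.54 ± 0.13, edgeR adjusted p = 3.15e-10), and Insig1 had -2.46 and -0.88 (difference -1.53 ± 0.27, edgeR adjusted p = 0.00167). Among the enzymes, Sqle had 0.63 under OSM and -0.35 with Treg (difference 1.01 ± 0.15, edgeR adjusted p = 5.63e-07), Fdft1 0.38 and -0.47, and Cyp51, the lanosterol demethylase, 0.25 and -0.33. Of 18 enzymes, 7 were more positive and 1, Hmgcs1, more negative under OSM. The differences of Dhcr7 (0.24 ± 0.21), Nsdhl (0.05 ± 0.15) and Sc5d (-0.14 ± 0.11) were not called (edgeR adjusted p = 0.428, 0.84 and 0.379). Library totals alone moved the median difference of all genes by -0.13. The call of Lss ended without the without-Treg replicate 1 (0.0741) or the with-Treg replicate 1 (0.0796) or PBS replicates 1 and 2 (0.0855 and 0.0892) or OSM replicates 2 and 3 (0.106 and 0.154) and that of Nr1h2 without OSM replicate 3 (0.0777). The wells without Treg and those with PBS differed in depth and in level before any treatment (Insig1 at 1065, 969 and 1080 CPM without Treg and 459, 401 and 429.7 CPM with PBS), and what part this has in the differences was not tested.

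In Treg cells the targeted gene Osm, which encodes OSM, was at 9.83, 14.6 and 7.76 CPM in KO libraries, against 29.1, 28.4 and 34.1 CPM in WT libraries, with no overlap between the genotypes and with reads left in all 3 KO libraries. No member of 31 tested was called in KO against WT, by edgeR or DESeq2, with 3 at an unadjusted p under 0.05 and 0.0526% of all 11416 genes called. The median of the 18 enzymes was 0.14, against 0.01 over all genes tested. Insig1 was at 86.8, 45.1 and 72.6 CPM in KO and 60.8, 83.2 and 77.9 CPM in WT, and Srebf2 at 199, 367 and 387 CPM in KO and 233, 274 and 228 CPM in WT. KO replicate 1 lay below every WT library in Srebf2 and KO replicates 2 and 3 above them. Abcg1 was at 265, 241 and 163 CPM in KO and 157, 154 and 168 CPM in WT (edgeR log2 fold change 0.52 ± 0.19, adjusted p = 0.394). Abca1 was at 1.20, 3.98 and 1.49 CPM in KO and 3.61, 3.89 and 0.512 CPM in WT. Nr1h3, too low to be tested, was at 0.479 to 0.896 CPM in KO and 0.676 to 1.79 CPM in WT. Apoe was at 71.9, 7.96 and 13.4 CPM in KO and 16.2, 18.9 and 7.94 CPM in WT. KO replicate 1, with the highest Apoe level, also had the highest sum of 10 macrophage markers, at 58.5 CPM, against 9.95 and 5.67 CPM in the other 2 KO libraries and 3.84 to 17.1 CPM in WT. Its part in the Apoe level was not tested. Leaving out KO replicate 1 gave 1 called member, Srebf2 (log2 fold change 0.68, edgeR adjusted p = 0.00883), with 4.95% of all 11832 genes called, and leaving out any other library gave 0.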

How the data were processed

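The authors deposited 1 table of whole-number read counts per gene for 42 libraries. The labels name mm10, STAR 2.7.3a and featureCounts in the submitters' processing notes, while the strand setting and the gene annotation are not given in the sources used here. Per the labels' protocols, fresh libraries held 1000 sorted cells, cultured wells were lysed directly and floating cells gave 2 ng RNA, so input amounts differ between experiments. Counts are of reads, without molecular identifiers, so precision follows the total count and the spread of replicates.

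CPM is a count scaled to a library total of 1000000, and levels used log2(CPM + 1). Tests used edgeR 4.0.16 (R 4.3.3, limma 3.58.1): filterByExpr with a minimum count of 10, TMM scaling, robust quasi-likelihood F tests, Benjamini-Hochberg adjustment over all genes tested and a threshold of 0.05. Floating cells, Treg cells and each of the Treg and OSM culture experiments were fitted alone. Fresh cells were fitted with the adipogenic cultures and, separately, with the transferred cells. SEs were taken as the log2 fold change over the square root of F. The OSM and Treg responses were compared in 1 fit of their 4 groups. The code was tested on simulated counts. Exonic lengths came from GENCODE M21 and promoters from RefSeq (GRCm38.p6). Figures were drawn with matplotlib 3.10.9.

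The members, the gene lists and the tests were chosen with earlier results of these data known. All members may be named, and values per library are given for called members among the 4 smallest adjusted p of their role and for Srebf2, Insig1, Abca1 and Apoe. Genes of a wider list of 49 cholesterol genes are named where called and among its 3 smallest adjusted p, with at least 20 CPM in a group. The alternatives run were DESeq2 1.42.0, RLE scaling, a fit without the low-count filter, a replicate block, the 2 compared groups alone and leaving out each library. Total-count scaling and a crossed block were added after seeing the data.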

Additional observations from a re-analysis of the deposited data

Results flagged for a closer look

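The OSM response minus the Treg response differed from 0 in 19 members by the interaction test of edgeR (adjusted p under 0.05, n = 3 libraries in each of 4 groups). Each value below is that difference on the log2 scale, so a positive one means a response to OSM above the response to Treg. Among the enzymes it was -0.561 for Hmgcs1, 0.887 for Mvd, 0.885 for Fdft1, 1.013 for Sqle, 0.391 for Lss, 0.623 for Cyp51, 1.843 for Tm7sf2 and 0.701 for Msmo1. Among the regulators it was 0.762 for Srebf2, -1.533 for Insig1 and 0.72 for Insig2. Among the efflux genes it was -1.245 for Nr1h3, 0.535 for Nr1h2, 0.613 for Abca1, -3.051 for Abcg1 and -1.535 for Apoe. For uptake, traffic and storage it was -1.083 for Scarb1, 0.936 for Stard4 and 0.745 for Soat1.

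Tm7sf2 had the largest difference among the enzymes. It was at 8.83, 17.7 and 9.20 CPM with OSM and 8.50, 8.18 and 7.67 CPM with PBS (edgeR log2 fold change 0.61 ± 0.38, adjusted p = 0.197), and at 10.5, 6.95 and 10.2 CPM with Treg, against 19.8, 23.3 and 20.9 CPM without Treg (edgeR log2 fold change -1.20 ± 0.16, adjusted p = 1.4e-07). Its exons overlap those of Vps51 on the same strand. The difference for Lss ended as a call under RLE scaling (edgeR adjusted p = 0.0572), total-count scaling (0.164), no low-count filter (0.159) and DESeq2 (DESeq2 adjusted p = 0.114). Adipocyte markers, whose levels stand beside each response above, moved much farther with OSM than with Treg, and their part in these differences was not tested.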

How the results depend on the processing

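No member changed direction among the 174 called members over 15 comparisons under any alternative run. RLE scaling kept 172 of 174 calls, total-count scaling 165, DESeq2 164, no low-count filter 163, the replicate block 172 and the 2 compared groups alone 108 of 111. Leaving out 1 library kept 1061 of 1135.

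The counts of called members that moved by over 1.5 times were these. For fresh VmSC5 against fresh VmSC4 (5 called) the 2 groups alone gave 2 and leaving out 1 library 2 to 9. For cultured VmSC5 against cultured VmSC4 (0) the 2 groups alone gave 3. For the difference of the culture responses (0) no low-count filter gave 1, total-count scaling 1 and leaving out 1 library 0 to 1. For VmSC4-5 against VmSC4-4 (0) DESeq2 gave 1, the 2 groups alone 2 and total-count scaling 1. For VmSC5-5 against VmSC4-5 (0) the 2 groups alone gave 1, and for VmSC5-5 against VmSC4-4 (1) leaving out 1 library gave 0 to 1. For DTR+ against DTR- (0) leaving out 1 library gave 0 to 20, and for KO against WT Treg (0) it gave 0 to 1. The cause of these moves was not tested.

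Whether the replicate numbers pair the samples is not given in the sources used here, and correlations cannot settle it. In no comparison were all of 3 or more same-number correlations over 0.1. With 2 same-number pairs, VmSC5-5 against VmSC4-4 had 0.108 and 0.115. Only in cultured VmSC5 against cultured VmSC4 did all 6 libraries correlate best with their own number, a hint from the data and not the design. The replicate block ended the call of Sc5d between fresh cells (adjusted p = 0.0525) and of Fdps under OSM (0.0522) and changed no other call of a member. With the numbers of the DTR+ libraries crossed, the block called 1 member and 1055 genes, against 0 and 287 without a block. Median shifts of all genes by over 0.1 came from total-count scaling (-0.54 and -0.43 in cultured VmSC4 and VmSC5, 0.12 for their difference, -0.38 for DTR+, -0.10 for OSM and -0.13 for OSM minus Treg) and from no low-count filter (-0.17 and -0.13 in cultured VmSC4 and VmSC5). DESeq2 called 14 members under OSM and 22 with Treg, against 19 and 25 in edgeR. Where a comparison rests on 2 libraries a group, leaving 1 out leaves a lone library that is assumed to vary like the others. Members under about 5 CPM, such as Idi1, are limited by depth.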

Other observations

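Per kilobase of exon, the members did not stand in one order in all cell types. Apoe was the highest member in transferred VmSC5-5 (649.5 CPM per kilobase), in floating cells (5418 in DTR+ and 4176 in DTR-) and in fresh VmSC5 (449 CPM per kilobase). In cultured VmSC5 the highest was Insig1, at 402.9 CPM per kilobase, ahead of Apoe at 311, Sc5d at 200.2 and Acat2 at 125 CPM per kilobase.

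In WT Treg cells the highest were Ebp (44.9 CPM per kilobase), Nr1h2 (40.7) and Srebf2 (34.1), and the lowest were Nr1h3 (0.446) and Abca1 (0.258 CPM per kilobase). Abcg1 stood at 21.9 CPM per kilobase there, so of each pair of related genes, the receptors Nr1h2 and Nr1h3 and the transporters Abcg1 and Abca1, Treg cells held 1 at a high level and the other near 0. In fresh VmSC5 the pairs stood otherwise, with Nr1h3 at 53.4 and Nr1h2 at 42.7 CPM per kilobase, and Abcg1 at 0.505 CPM per kilobase. Idi1 was among the lowest members in each of these groups. These are levels of reads, given without a test.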
